A study of Mus musculus with 12 samples.

Results

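The high mobility group (HMG) chromatin proteins were followed through 4 groups of sorted mouse bone marrow progenitors. The 9 genes described are Hmgb1, Hmgb2, Hmgb3, Hmga1, Hmga2, Hmgn1, Hmgn2, Hmgn3 and Hmgn5, taken by name from 23387 genes counted in all 12 libraries. The family was selected on the levels of Hmgb2, which were lower in both enhancer-null cell types of these same data, so genotype differences of the members are given as a description, with no test. All mice were C57BL/6 and carried no other labelled allele or treatment. The enhancer-null mice lacked both copies of the Cebpa +42kb enhancer, an element that drives Cebpa, whose product commits progenitors to granulocytes and monocytes, and the other mice were wild type. The labels name no Cre or promoter that would limit the deletion to a cell type, and age was not given in the sources used here. From each genotype the sort took common myeloid progenitors (CMP) and LSK cells (lineage-negative, Sca-1-positive, Kit-positive cells, labelled as hematopoietic stem cells), with 3 libraries per group. Libraries are named by the number in their label, 1, 2 and 7 in the enhancer-null groups and 1, 6 and 8 in the wild-type groups. The labels do not say that replicates came from separate animals. By Xist and Y-linked counts every group held male and female libraries, so no group came from a single animal. Libraries of the same sex in a group may still share an animal. The p-values thus measure the spread between these libraries, which may be technical in part.

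The family has HMGB, HMGA and HMGN branches, and each holds chromatin differently. HMGB proteins carry paired HMG boxes and an acidic tail, bend DNA and help transcription factors, recombinases and remodellers reach it. HMGA proteins bind the minor groove of AT-rich DNA through AT hooks. HMGN proteins bind the nucleosome core itself and compete with linker histone H1. In blood formation Hmgb2 transcript is known to follow the cell cycle, Hmgb3 is known from stem and progenitor cells, and Hmga2 is known as a let-7 target that promotes self-renewal of young stem cells.

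The labels were checked first. Cebpa had 0 to 3 counts in the enhancer-null CMP libraries and 270 to 544 in the wild-type CMP libraries, and 0 to 15 against 39 to 226 in LSK. Ly6a, which encodes Sca-1, stood at 178 ± 30.1 (SD, n = 3) and 153 ± 21.3 CPM in enhancer-null and wild-type LSK, and at 7.26 ± 6.46 and 4.81 ± 1.37 CPM in CMP. CPM are gene counts scaled to library size, with TMM factors over the 12 libraries. Libraries held 6170491 to 49149674 gene counts, so that a floor of 3 counts corresponds to 0.061 to 0.486 CPM. Every member had counts in every library and passed the expression filter in every comparison. The smallest member counts were 3, for Hmga1 and Hmga2 in enhancer-null CMP replicate 1.

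The sequence before the transcription start was read for 8 of the 9 members from RefSeq promoters (GRCm38.p6), in 10 windows of 250 bases, since Hmgb1 and Hmga1 each had a pair of starts. Hmgn3 was not matched. The windows below are shown because Hmgb2 and Hmgn2 are the abundant members whose genotypes did not overlap in either cell type, and Hmgb3 is the member with the next most matches to Hmgb2's motifs. Each sequence runs 5′ to 3′ on the gene's strand and ends at the base before the RefSeq start. Capitals mark CCAAT boxes (CCAAT), the cell cycle genes homology region or CHR (TTTGAA) and a C/EBP-type site (TTGCNNAA), each searched on both strands. The Hmgb2 window is chr8:57511593-57511842 on the plus strand, the Hmgb3 window chrX:71555667-71555916 on the plus strand and the Hmgn2 window chr4:133967992-133968241 on the minus strand.
Hmgb2: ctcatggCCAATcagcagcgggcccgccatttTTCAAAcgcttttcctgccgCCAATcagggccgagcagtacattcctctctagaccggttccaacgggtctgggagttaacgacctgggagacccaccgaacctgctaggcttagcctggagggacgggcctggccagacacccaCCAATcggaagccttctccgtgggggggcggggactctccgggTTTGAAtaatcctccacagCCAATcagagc
Hmgb3: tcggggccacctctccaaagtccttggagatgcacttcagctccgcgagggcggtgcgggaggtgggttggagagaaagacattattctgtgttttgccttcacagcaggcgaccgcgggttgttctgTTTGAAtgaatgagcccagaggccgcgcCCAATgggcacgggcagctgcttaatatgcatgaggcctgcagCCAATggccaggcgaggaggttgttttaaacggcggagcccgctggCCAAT
Hmgn2: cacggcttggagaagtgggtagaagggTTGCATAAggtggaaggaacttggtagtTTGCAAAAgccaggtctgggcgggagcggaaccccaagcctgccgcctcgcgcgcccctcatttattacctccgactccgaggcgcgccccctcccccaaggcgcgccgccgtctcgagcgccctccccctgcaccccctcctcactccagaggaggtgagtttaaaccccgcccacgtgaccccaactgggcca

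The Hmgb2 window held 4 CCAAT boxes, 243, 198, 73 and 11 bases before the start, and 2 CHR matches, 218 and 30 bases before it. CCAAT boxes are bound by the factor NF-Y and CHR elements by cell cycle repressor complexes, as general background. Of 32851 RefSeq promoters, 33.8% held a CCAAT box in the same 250 bases and 10.1% held 2 or more, 16% held a CHR and 1.81% held 2 or more, and 1.53% held 2 or more CCAAT boxes together with a CHR. Hmgb3 was the other member of that last kind, with 3 CCAAT boxes 94, 51 and 5 bases and 1 CHR 122 bases before its start. Hmgb1 had 3 CCAAT boxes before its upstream start and none before its downstream start. Hmgn1 and Hmgn5 had 2 CCAAT boxes each. No CHR match was found for Hmgb1, Hmga1, Hmga2, Hmgn1, Hmgn2 or Hmgn5.

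Hmgn2 was the single member with the C/EBP-type pattern, which it held 223 and 195 bases before the start, and it had no CCAAT box or CHR. That pattern stood in 9.56% of all promoters and 2 or more times in 0.572%. An E2F-type pattern (TTTNGCGC, 1.13% of promoters) was found in none of the members' windows, and the GC box (GGGCGG, 32.7%) was left in lower case. The Hmgb2 start of RefSeq, position 57511843, lies 64 bases before the start of the gene in GENCODE. The Hmgn2 window, with its C/EBP-type matches, lies inside the GENCODE gene, which starts at position 133968650 on the minus strand. The Hmgb1 windows likewise lie inside the GENCODE gene of Hmgb1. These matches describe letters in a window and were not tested for binding.

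**Figure D1:**
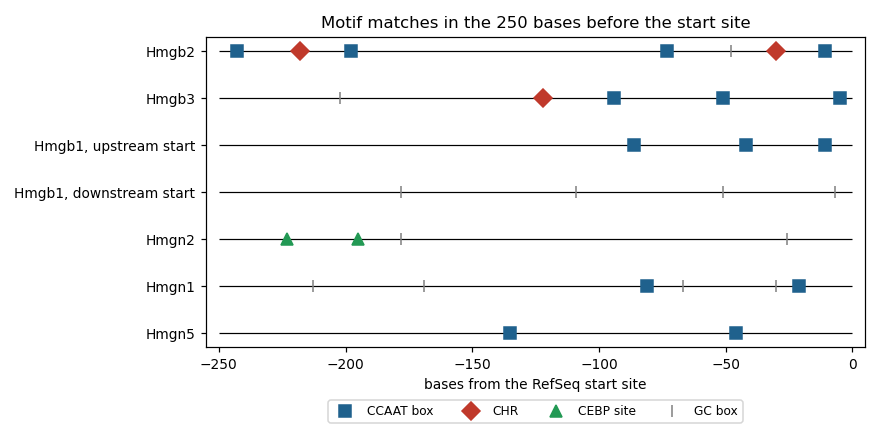
Motif matches in the 250 bases before each RefSeq start site, with distance from the start in bases on the x axis and 1 line per window. Squares are CCAAT boxes, diamonds CHR, triangles the C/EBP-type pattern and ticks GC boxes. Hmgb2 shows 4 squares and 2 diamonds, Hmgb3 shows 3 squares and 1 diamond, and Hmgn2 alone shows triangles. The windows of Hmga1 and Hmga2, which held GC boxes alone, are not drawn.

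The 9 genes together took 0.333% to 0.564% of the gene counts of a library, and Hmgb1, Hmgb2 and Hmgn2 made up 79.9% to 87.1% of the family's counts. Per kilobase of exon, wild-type CMP held 415 ± 31.3 CPM of Hmgb1, 414 ± 52.2 of Hmgn2 and 374 ± 63.8 of Hmgb2 (SD, n = 3), which did not differ beyond their spread. Hmgb3 (128 ± 13.7), Hmgn1 (111 ± 11.1) and Hmgn5 (59.1 ± 9.5) came next. Hmgn3 (7.12 ± 4.12), Hmga1 (3.1 ± 0.607) and Hmga2 (1.91 ± 0.525) were lowest. The same 3 genes were lowest in all 4 groups, and Hmgb2 came after Hmgb1 and Hmgn2 in all 4. In wild-type LSK Hmgn2 led at 413 ± 46.2 CPM per kilobase, over Hmgb1 at 286 ± 14.6. Dividing by the length of the longest coding transcript in place of all exons put Hmgn2 first in wild-type CMP also, at 1002 ± 126 against 735 ± 55.3, so the order of the highest members depends on the length used.

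Some of these levels rest on sequence shared with other genes. Of all 75-base stretches of the longest coding transcript, the length of a read, 64.3% in Hmga1 (all with Hmga1b), 55.9% in Hmgn2 and 37.3% in Hmgb1 occurred exactly in another annotated gene, many of them unnamed copies. The share was 20.8% in Hmgb2, 24.7% in Hmgb3, 15.8% in Hmgn5 and 1.79% to 4.05% in Hmga2, Hmgn1 and Hmgn3. Reads of such stretches could have been dropped or split by the counting, so levels between members are uncertain, most of all for Hmga1 and Hmgn2. Hmgb1 also overlaps Uspl1 on the opposite strand, Hmga1 overlaps AI413582, and Hmga2 and Hmgn3 overlap non-coding genes there. Whether the counting used strand is not given in the sources used here.

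**Figure D2:**
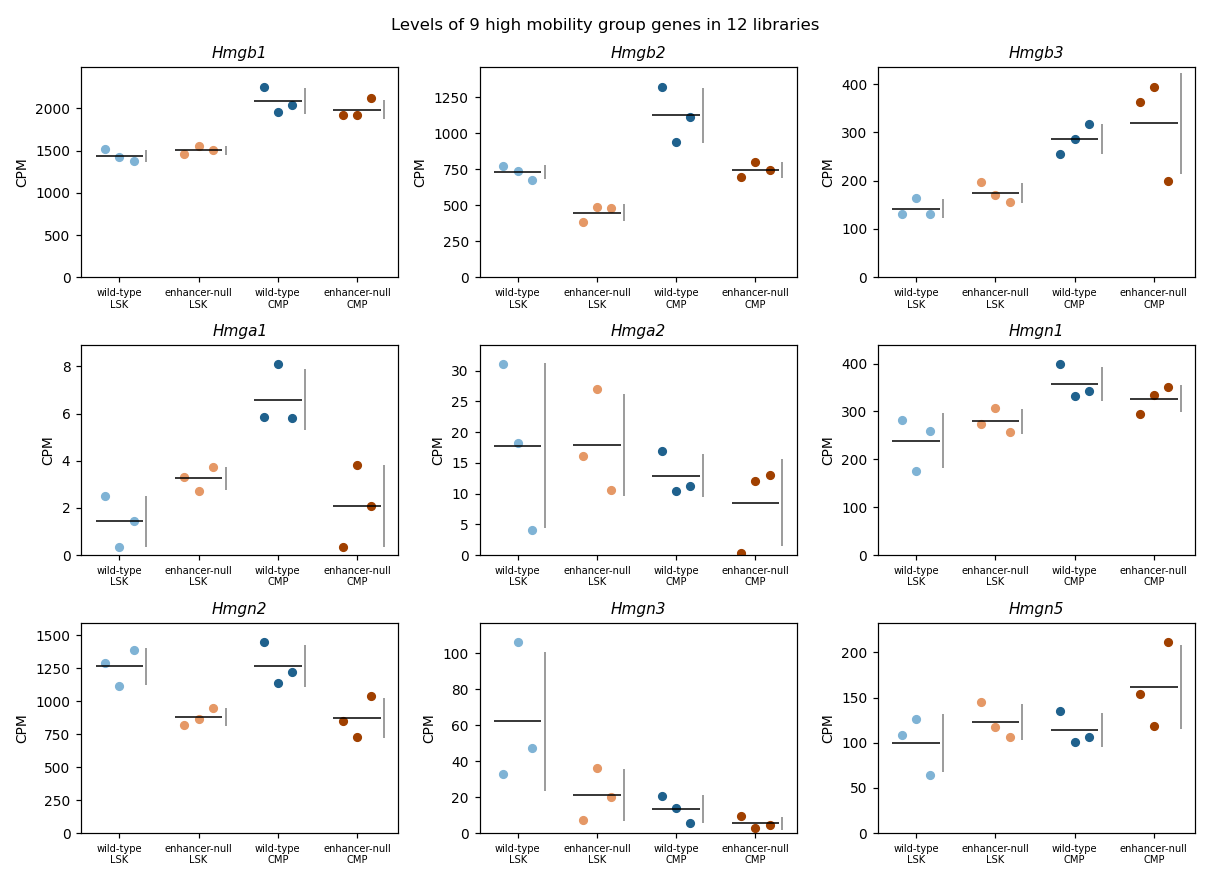
CPM of each member (y axis, linear, from 0) in the 3 libraries of each group (x axis). Points are libraries, horizontal lines are group means and the grey bars beside them are ± 1 SD. Hmgb2 and Hmgn2 sit lower in both enhancer-null groups than in the matching wild-type groups, while Hmgb1 and Hmgb3 are separated by cell type.

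Hmgb2 (ENSMUSG00000054717.7, chr8:57511907-57515999, plus strand, mm10), the HMGB paralog of dividing cells, showed both a cell type and a genotype difference. Its levels in wild-type LSK were 773, 735 and 675 CPM (replicates 1, 6 and 8), and those in wild-type CMP were 1323, 940 and 1110 CPM. Its levels in enhancer-null LSK were 383, 487 and 477 CPM (replicates 1, 2 and 7), and those in enhancer-null CMP were 693, 799 and 742 CPM. The ranges of the genotypes did not overlap in either cell type, and enhancer-null CMP lay at the level of wild-type LSK. The group means were 745 ± 53 against 1124 ± 192 CPM in CMP and 449 ± 57.6 against 728 ± 49 CPM in LSK (SD, n = 3). The fitted genotype difference was −0.58 (SE 0.15) on the log2 scale in CMP, a level 1.5-fold lower, and −0.67 (SE 0.13) in LSK, 1.59-fold lower. Over 12 alternative settings it ran from −0.70 to −0.48 in CMP and from −0.75 to −0.56 in LSK. Sex was read from Xist and Y-linked counts, with 1 or 2 libraries of each sex per group. Since the genotypes did not overlap in either cell type, the same order within each sex follows and is no further support. The genotype differences chose the family and carry no p here. The difference of the genotype effect between CMP and LSK was 0.12 (SE 0.20).

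Hmgb2 rose from LSK to CMP in wild type, by 0.68 (SE 0.15) on the log2 scale or 1.61-fold, with an adjusted p of 0.0477 (quasi-likelihood test of edgeR, Benjamini-Hochberg adjustment over all genes). All 3 wild-type CMP libraries lay above all 3 wild-type LSK libraries. The call was lost in 5 of 6 fits that left out 1 library (adjusted p up to 0.159) and with DESeq2's size factors (0.0523). In enhancer-null mice the same step was 0.74 (SE 0.14), again without overlap, and did not pass (edgeR adjusted p = 0.282), in a comparison where no gene passed. The wild-type libraries of this step also entered the genotype differences that chose the family.

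Hmgb1 (ENSMUSG00000066551.12, chr5:149046702-149184489, minus strand), the ubiquitous HMG-box protein that also acts as an alarm signal outside cells, was separated by cell type. It stood at 1520, 1418 and 1378 CPM in wild-type LSK and at 2258, 1952 and 2044 in wild-type CMP. In enhancer-null LSK it stood at 1455, 1557 and 1501 CPM, and in enhancer-null CMP at 1920, 1921 and 2117. The genotypes overlapped in both cell types, with fitted differences of −0.06 (SE 0.10) in CMP and 0.09 (SE 0.08) in LSK. Its rise from LSK to CMP in wild type was 0.59 (SE 0.10) on the log2 scale, 1.51-fold (edgeR adjusted p = 0.0218), a call lost in 5 of 6 fits that left out 1 library (adjusted p up to 0.0938). In enhancer-null mice the step was 0.41 (SE 0.09), without overlap and not past the threshold (edgeR adjusted p = 0.306).

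Because Hmgb1 differed little between genotypes, the Hmgb2 count per Hmgb1 count was taken within each library, which does not depend on library size or scaling. The ratio was 0.508, 0.519 and 0.49 in wild-type LSK and 0.263, 0.313 and 0.318 in enhancer-null LSK. In CMP it was 0.586, 0.482 and 0.543 in wild type and 0.361, 0.416 and 0.35 in enhancer-null mice. Every enhancer-null library lay below every wild-type library, whatever its cell type. The ratio reuses the Hmgb2 counts that chose the family, so this separation is a description and no further support. The means were 0.506 ± 0.0144 and 0.537 ± 0.0524 in wild-type LSK and CMP, and 0.298 ± 0.0303 and 0.376 ± 0.0351 in enhancer-null LSK and CMP (SD, n = 3). The ratio compares counts of genes of unequal length and is read between libraries alone.

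**Figure D3:**
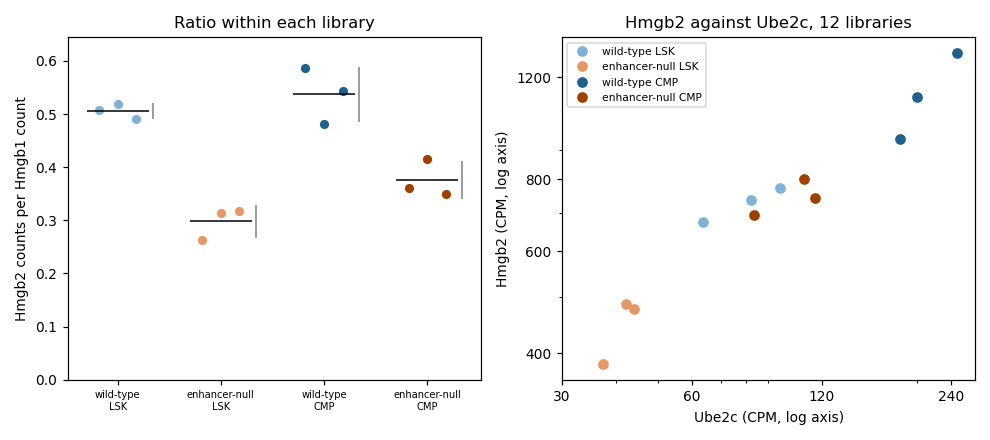
Left, Hmgb2 counts per Hmgb1 count in each library (y axis from 0) by group, with group means as lines and ± 1 SD as grey bars. Right, CPM of Hmgb2 against CPM of Ube2c in the 12 libraries, both on log axes. The 6 enhancer-null ratios lie between 0.263 and 0.416, below the 6 wild-type ratios, and reuse the Hmgb2 counts that chose the family. The points on the right run from enhancer-null LSK at the lower end to wild-type CMP at the upper end.

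Hmgb3 (ENSMUSG00000015217.11, chrX:71555918-71560676, plus strand) rose with the cell type step. It stood at 131, 164 and 132 CPM in wild-type LSK and 256, 287 and 317 in wild-type CMP, a rise of 1.06 (SE 0.18) on the log2 scale or 2.08-fold (edgeR adjusted p = 0.0236), a call likewise lost in 5 of 6 such fits (adjusted p up to 0.115). In enhancer-null LSK it stood at 197, 171 and 156 CPM and in enhancer-null CMP at 362, 395 and 200, a step of 0.88 (SE 0.27) that did not pass (edgeR adjusted p = 0.565). The single low enhancer-null CMP library was replicate 7. The genotypes overlapped in both cell types, at 0.16 (SE 0.26) in CMP and 0.32 (SE 0.19) in LSK. The value in CMP lies within its error and was −0.02 without enhancer-null CMP replicate 2, so that it gives no direction.

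The HMGA genes were scarce. Hmga1 (ENSMUSG00000046711.16, chr17:27556497-27563674, plus strand), the AT-hook protein common in proliferating and embryonic cells, had 90 to 185 counts in wild-type CMP and 3, 78 and 34 in enhancer-null CMP. In LSK it had 87, 5 and 23 counts in wild type and 43, 17 and 185 in enhancer-null mice. In CPM these were 5.87, 8.08 and 5.82 against 0.346, 3.82 and 2.07 in CMP, and 2.51, 0.349 and 1.45 against 3.3, 2.73 and 3.72 in LSK. All enhancer-null CMP libraries lay below, and all enhancer-null LSK libraries above, the wild-type libraries of the same cell type. The fitted genotype differences were −1.65 (SE 1.33) and 1.20 (SE 1.39), both about as large as their errors. Its step in wild type was 2.25 (SE 1.23), without overlap between the groups, and did not pass (edgeR adjusted p = 0.361).

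Hmga2 (ENSMUSG00000056758.14, chr10:120361275-120476469, minus strand) varied widely within groups. Wild-type LSK held 31, 18.3 and 4.16 CPM and enhancer-null LSK 16.2, 27 and 10.6 CPM. The CMP values were 17, 10.5 and 11.3 CPM in wild type and 0.346, 12.1 and 13.1 in enhancer-null mice, the lowest value being 3 counts. The groups overlapped in every comparison, and the wild-type step was −0.40 (SE 0.79; edgeR adjusted p = 0.827). Lin28b, the RNA-binding protein that holds back let-7, was at 0 in 10 of the 12 libraries and at 0.115 and 1.11 CPM in the other two.

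Hmgn2 (ENSMUSG00000003038.15, chr4:133964738-133968650, minus strand), the most abundant nucleosome-binding member, was separated by genotype, while its cell types overlapped. In wild-type CMP it stood at 1445, 1136 and 1222 CPM and in enhancer-null CMP at 852, 729 and 1036. In wild-type LSK it stood at 1287, 1111 and 1391 CPM and in enhancer-null LSK at 817, 863 and 951. The genotypes did not overlap in either cell type, as for Hmgb2. The fitted genotype differences were −0.53 (SE 0.16) in CMP and −0.50 (SE 0.11) in LSK, levels 1.44-fold and 1.41-fold lower. From LSK to CMP the fitted difference was 0.06 (SE 0.13; edgeR adjusted p = 0.844) in wild type and 0.00 (SE 0.15; edgeR adjusted p = 1) in enhancer-null mice.

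Hmgn1 (ENSMUSG00000040681.16, chr16:96120618-96127729, minus strand), the HMGN member of the Down syndrome region in humans, stood at 283, 175 and 259 CPM in wild-type LSK and 398, 332 and 342 in wild-type CMP. The step of 0.64 (SE 0.20) separated the groups and did not pass (edgeR adjusted p = 0.125). In enhancer-null mice it ran from 257 to 308 CPM in LSK and from 295 to 350 in CMP, and the genotypes overlapped in both cell types.

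Hmgn3 (ENSMUSG00000066456.14, chr9:83109948-83146685, minus strand), a member best known from endocrine and eye tissue, was the member whose wild-type groups separated with the lower levels in CMP. It stood at 33.1, 106 and 47.3 CPM in wild-type LSK and at 20.8, 13.7 and 5.43 in wild-type CMP, a step of −2.18 (SE 0.64; edgeR adjusted p = 0.109). In enhancer-null mice it stood at 7.15, 36.2 and 20.1 CPM in LSK and at 9.34, 2.69 and 4.25 in CMP, a step of −1.96 (SE 1.01; edgeR adjusted p = 0.811). Wild-type LSK replicate 6 held the highest value of all. The fitted genotype differences, −1.28 (SE 1.02) in CMP and −1.53 (SE 0.68) in LSK, stood on groups that overlapped.

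Hmgn5 (ENSMUSG00000031245.8, chrX:109004534-109013404, minus strand), an HMGN protein with a long acidic tail, kept within 64.3 to 211 CPM in all 12 libraries. Its groups overlapped in every comparison, and its wild-type step was 0.25 (SE 0.29; edgeR adjusted p = 0.693). Hmgb3 and Hmgn5 are X-linked, and by Xist and Y-linked counts replicates 1 and 2 of the enhancer-null groups and replicate 1 of the wild-type groups were male, and the others female. In CMP the males had 362 and 395 CPM of Hmgb3 in enhancer-null mice and 256 in wild type, while the female values were 200 against 287 and 317, so the genotype difference in CMP had opposite signs within the sexes.

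Counted over the family, the wild-type step gave 3 of 9 members higher (Hmgb1, Hmgb2 and Hmgb3) and 0 lower by edgeR, where 2.15% of 12030 genes were called higher and 2.06% lower. The groups did not overlap for 5 members with higher levels in CMP (the 3 HMGB genes, Hmga1 and Hmgn1) and 1 with lower levels (Hmgn3), against 15.9% and 17.4% of all genes. The median log2 difference was 0.59, and −0.0055 over all genes tested. All 3 calls were lost in 5 of 6 fits that left out 1 wild-type library. They were kept without wild-type LSK replicate 6. With the replicate number as a block in the model, they were lost as well. In enhancer-null mice 0 members and 0 of 11267 genes (0%) were called by edgeR, with 3 members and 780 genes at an unadjusted p under 0.05, and DESeq2 called 366 genes, Hmgb1 and Hmgb2 among them. The 3 HMGB genes again did not overlap between the cell types there, where 7.57% of all genes did so with higher levels in CMP. The median was 0.23 for the members and −0.0072 for all genes.

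**Figure D4:**
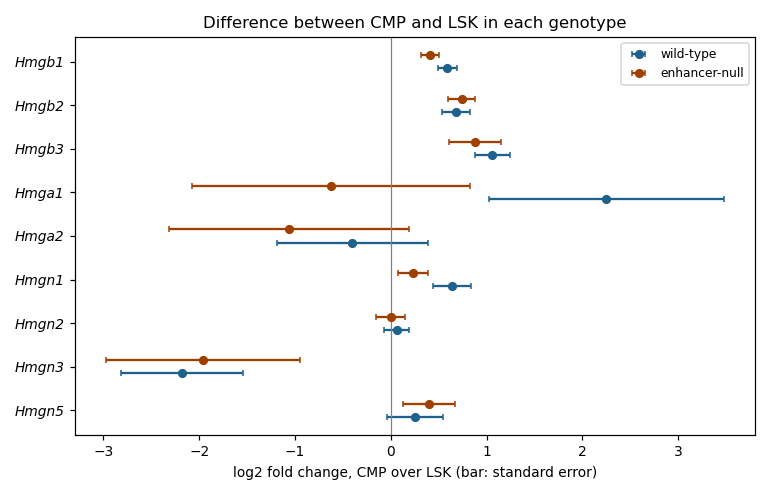
Log2 difference between CMP and LSK for each member (x axis, positive where CMP was higher), with bars of ± 1 SE from the edgeR fit, in wild-type and in enhancer-null mice. Hmgb1, Hmgb2 and Hmgb3 lie right of 0 in both genotypes, Hmgn2 lies at 0.06 and 0.00, and Hmgn3 lies at −2.18 and −1.96.

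The size of the step was then compared between genotypes by the interaction term over all 12 libraries, which equally tests whether the genotype effect differed between CMP and LSK. No member passed by edgeR, where 0.292% of 12687 genes did. At an unadjusted p under 0.05 stood 0 members, against 7.63% of all genes. DESeq2 called 253 genes, with 0 members among them. Apart from Hmgb2, given above without a p, the edgeR adjusted p of the members ran from 0.804 (Hmga1) to 1 (Hmgn2). The differences were −0.12 (SE 0.12) for Hmgb1, −0.12 (SE 0.33) for Hmgb3, −0.34 (SE 0.26) for Hmgn1 and 0.01 (SE 0.20) for Hmgn2 on the log2 scale. A step of equal size in both genotypes is not shown by these values.

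For the genotype itself, 0 of 9 members were called by edgeR in CMP, where 0.529% of 11723 genes were, and 0 in LSK, where 0.103% of 11621 genes were. At an unadjusted p under 0.05 stood 2 members in each cell type, against 1477 genes in CMP and 920 in LSK. DESeq2 called 893 genes in CMP, 1 of them a member, and 390 in LSK, 2 of them members. The groups did not overlap for 3 members with lower levels in enhancer-null CMP (Hmgb2, Hmgn2 and Hmga1), against 12.9% of all genes. In LSK they did not overlap for 2 with lower levels (Hmgb2 and Hmgn2, against 10.4%) and 1 with higher levels (Hmga1, against 8.62%). The median log2 difference over the members was −0.53 in CMP and 0.09 in LSK, and −0.0218 and −0.0098 over all genes. As these contrasts chose the family, none of these counts is a test of the members and nothing is read from them.

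**Figure D5:**
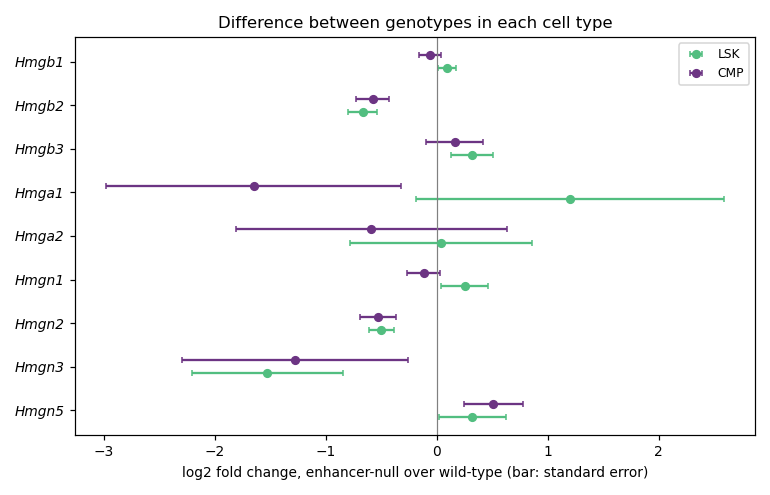
Log2 difference between enhancer-null and wild-type mice for each member (x axis, negative where enhancer-null was lower), with bars of ± 1 SE from the edgeR fit, in CMP and in LSK. Hmgb2 lies at −0.58 and −0.67 and Hmgn2 at −0.53 and −0.50, with short bars, while the bars of Hmga1, Hmga2 and Hmgn3 are several times longer.

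The genes whose log2 level followed Hmgb2 most closely over the 12 libraries were sought among 9176 genes that averaged 10 CPM or more. Ube2c, a ubiquitin-conjugating enzyme of the anaphase-promoting complex, came first with a Pearson r of 0.973. Its deviations from the group means followed those of Hmgb2 with an r of 0.78. Ube2c levels were 248, 182 and 200 CPM for wild-type CMP and 83.8, 109 and 116 in enhancer-null CMP, and at 96.1, 82.2 and 63.6 against 37.3, 42.1 and 44.1 in LSK. It thus took the same order of groups as Hmgb2, with enhancer-null CMP near wild-type LSK. Eif4ebp1 (a translation repressor, r = 0.957), Fth1 (ferritin heavy chain, 0.945), Ndufb7 (respiratory complex I, 0.941), Uqcr11 (respiratory complex III, 0.940) and Tomm6 (mitochondrial import, 0.925) followed, with an r of deviations between 0.38 and 0.62. Ranked by Spearman's rho, which was 0.965 for Ube2c, 0.951 for Fth1 and 0.776 to 0.881 for the other 4, only 2 of the 6 stayed among the 6 nearest genes. The points share libraries, depth and group differences, so these values are descriptive. Among the members, Hmgb1 followed Hmgb2 with r = 0.71 overall and 0.74 in deviations. Hmgn2 followed it with 0.61 and 0.31, and Hmgb3 with 0.44 and −0.19.

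Genes of dividing cells were measured beside Hmgb2. The summed level of 20 genes of G2 and mitosis was 4648, 4371 and 4553 CPM in wild-type CMP and 1762, 3395 and 2905 in enhancer-null CMP, and 2519, 1774 and 2383 against 1399, 1641 and 1868 in LSK. The genotypes did not overlap in CMP and overlapped in LSK, where Hmgb2 did not. None of the 20 was at 0 in any library. In the wild-type step 8 of 20 were called higher by edgeR and 0 lower, with a median log2 difference of 1.17. Of 18 DNA replication genes 5 were called higher, with a median of 0.90. Over all genes 2.15% were called higher and 2.06% lower. By genotype edgeR called none of either list. At an unadjusted p under 0.05 by genotype stood 12.6% of all genes in CMP and 7.92% in LSK. DESeq2 called 893 genes in all by genotype in CMP and 390 in LSK. In CMP 19 of the 20 G2 and mitosis genes had negative differences (median −0.78, with 11 at an unadjusted p under 0.05 and 7 called by DESeq2), and in LSK 17 of 20 (median −0.42, with 5 and 2). Of 18 DNA replication genes 17 had negative differences in CMP (median −0.64, with 8 at an unadjusted p under 0.05 and 3 called by DESeq2). In LSK 12 were negative and 6 positive (median −0.14, with 2 and 0). Their summed level was 6257 to 7236 CPM in wild-type and 3679 to 5380 in enhancer-null CMP, and it overlapped in LSK, at 3248 to 4335 and 2646 to 4358 CPM. A RefSeq promoter was found for 17 of the G2 and mitosis genes. Of these 17, 5 (29.4%) held 2 or more CCAAT boxes and a CHR in any window, as Hmgb2 and Hmgb3 did. Among all RefSeq promoters, counted by window and not by gene, 1.53% did. Ube2c held 6 CCAAT boxes and 1 CHR. The part of dividing cells in the Hmgb2 values was not tested. In bulk libraries fewer cells of a type and less RNA per cell cannot be told apart.

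Markers of other cells also differed between the groups. Summed over 6 monocyte markers, wild-type CMP held 882 to 987 CPM and enhancer-null CMP 45.5 to 215, while 6 mast cell and basophil markers held 43.1 to 239 and 1398 to 1764 CPM. Cpa3 (1103 ± 211 against 41.7 ± 20.1 CPM in wild type) and Gzmb (463 ± 190 against 0.808 ± 1.02) made up most of that sum in enhancer-null CMP, and Fcer1a was also higher on average (SD, n = 3). The other 3 had lower means there than in wild-type CMP, with 6.57 against 18.6 CPM for Mcpt8, 5.68 against 10 for Ms4a2 and 0 in all 3 libraries against 37.8 ± 65.1 for Prss34. In LSK the mast cell and basophil sum was 6.81 to 13.6 CPM in wild type and 320 to 670 in enhancer-null mice. The monocyte sum in LSK went the other way than in CMP, at 43.7 to 62.3 CPM in wild type and 99.5 to 148 in enhancer-null mice. The sum of 7 neutrophil markers was 1986, 232 and 25.9 CPM in wild-type CMP and 1274, 255 and 121 in wild-type LSK, highest in replicate 1 of both. It was 3.69 to 26.5 CPM in the enhancer-null libraries, a range that includes wild-type CMP replicate 8. Of these 7, up to 4 were at 0 in a single library. The sum of 7 erythroid markers was 574 to 2109 CPM in CMP and 3.7 to 102 in LSK. The part of such cells in the members' values was not tested.

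Other genes of the same chromatin pathways were taken from 5 lists. Of 13 tested HMG-box and nucleosome partners, edgeR called 2 lower and 0 higher in the wild-type step, against 2.06% and 2.15% of all genes. Bbx, an HMG-box factor, went from 124, 168 and 152 CPM in LSK to 45, 56.2 and 55 in CMP, a change of −1.45 (SE 0.23; edgeR adjusted p = 0.0189). Hbp1, an HMG-box repressor linked to cell cycle exit, went from 172, 257 and 204 to 84.2, 109 and 72.6 CPM, a change of −1.20 (SE 0.24; edgeR adjusted p = 0.04). In enhancer-null mice the same steps were 0.02 (SE 0.34) and −0.21 (SE 0.20), and the differences between genotypes, 1.54 and 1.05, did not pass (edgeR adjusted p = 0.292 and 0.334). Bbx and Hbp1 thus moved in the direction opposite to the 3 HMGB genes in wild type. The list as a whole did not, with 7 positive and 6 negative differences in that step (median 0.15). DESeq2 called 5 of its genes there, among 2112 genes in all.

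The SET complex, in which HMGB2 is known to sit with SET, ANP32 proteins and DNA repair enzymes, had 7 listed genes. In wild-type CMP edgeR called 2 of these higher and 0 lower, against 2.15% and 2.06% of all genes. Anp32e, an H2A.Z chaperone, went from 285, 253 and 208 to 590, 501 and 684 CPM, a rise of 1.31 (SE 0.18; edgeR adjusted p = 0.0137). Nme1, a nucleoside diphosphate kinase, went from 175, 204 and 175 to 385, 315 and 299 CPM, a rise of 0.90 (SE 0.17; edgeR adjusted p = 0.0307). In enhancer-null mice their steps were 0.07 (SE 0.37) and 0.21 (SE 0.18), and the differences between genotypes, −1.17 and −0.63, did not pass (edgeR adjusted p = 0.491 for both).

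Among 10 tested genes of HMGB1 signalling, Cd24a, which encodes a surface partner of HMGB1, rose in wild type by 0.97 (SE 0.20; edgeR adjusted p = 0.0422) and no other passed. It stood at 364, 408 and 267 CPM in wild-type LSK and 750, 548 and 663 in wild-type CMP, and its step in enhancer-null mice was 1.02 (SE 0.30; edgeR adjusted p = 0.518). Of 7 tested linker histones none passed in the wild-type step by edgeR, at an unadjusted p under 0.05 or by DESeq2 (median 0.71). Of 5 tested genes of the Lin28, let-7 and Hmga2 axis none passed by edgeR (1 at an unadjusted p under 0.05, 0 by DESeq2). Over all genes in that step, 20.5% reached an unadjusted p under 0.05, and DESeq2 called 2112. None of the genes in the 5 lists was called by edgeR by genotype, in the enhancer-null step or in the interaction. Over all genes, 12.6% reached an unadjusted p under 0.05 in the CMP genotype comparison and 7.92% in that of LSK. The shares were 6.92% in the enhancer-null step and 7.63% in the interaction. At an unadjusted p under 0.05 stood 5 of 13 HMG-box partners, 4 of 7 SET complex genes and 1 of 7 linker histones in the CMP genotype comparison. There DESeq2 called 893 genes in all, with 1 of each of these lists and 1 gene of HMGB1 signalling. In the interaction stood 4 HMG-box partners, 3 SET complex genes and 1 linker histone. DESeq2 called 253 genes there in all, with 1 HMG-box partner. In the LSK genotype comparison stood 3 HMG-box partners and 1 gene each of the SET complex and HMGB1 signalling. The enhancer-null step had 1 gene each of HMGB1 signalling and the Lin28 axis. DESeq2 called 0 genes of the 5 lists in both, among 390 and 366 genes in all. Without 1 wild-type library at a time, the calls of Hbp1, Nme1 and Cd24a held in 1 of 6 fits (without wild-type LSK replicate 6), that of Bbx in 2 and that of Anp32e in 4.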

How the data were processed

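The authors' deposited values are raw read counts by gene symbol for each library. Per the labels' protocols, carrier-extracted RNA was amplified by a low-input kit before paired 75 bp sequencing. The submitters' processing notes name mm10 and TopHat2 2.0.4, TopHat, Bowtie and HTSeq. The annotation, counting mode and strand setting were not given in the sources used here. Rows naming no gene (37.2% to 46.9% of counts) were left out. Because 11 files held 24420 symbols each but wild-type CMP replicate 6 held 23456, files were joined on 22779 identical symbols and 608 linked by RefSeq synonyms.

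Counts were tested with edgeR 4.0.16 under R 4.3.3 (robust quasi-likelihood, TMM, minimum count 10, Benjamini-Hochberg at 0.05), and with DESeq2 1.42.0 as an alternative, on the groups compared (interaction: all 12 libraries). An SE is the log2 difference divided by the root of F. Counts were also simulated with 200 randomly drawn genes changed. For the wild-type step (12030 genes), 3.06% of changes of 1 and 40.6% of changes of 2 (log2) were recovered. For the enhancer-null step (11267 genes) the shares were 0% and 20.4%. The simulated wild-type step gave 43 calls, where the data gave 259 higher and 248 lower. The changed genes were drawn at all levels, so these shares do not give the power for the members. Likeness used log2(CPM + 0.5). Positions are from GENCODE.

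Members, lists and rules were chosen with earlier results of these data known. Named were all members, the 6 genes nearest to Hmgb2 and, from each context list, up to 2 called genes with the smallest p in the wild-type step. Cebpa, Ly6a and Lin28b were named outside this rule. Alternatives were another normalization, no filter, identical symbols, 1 fit of all libraries, sex, replicate block and leaving out each library.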

Additional observations from a re-analysis of the deposited data

Results flagged for a closer look

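Hmga1 had genotype effects of opposite sign in the 2 cell types: every enhancer-null CMP library lay below, and every enhancer-null LSK library above, the wild-type libraries of its cell type. The difference between the effects was −2.82 (SE 1.85) on the log2 scale and did not pass the test of the interaction (edgeR adjusted p = 0.804). Hmga1 had 3 to 185 counts per library, and 64.3% of its 75-base stretches occur also in Hmga1b.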

How the results depend on the processing

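The number of genes called depended on the tool. DESeq2 called 893 genes by genotype in CMP (1 member), 390 in LSK (2 members), 2112 in the wild-type step (5 members), 366 in the enhancer-null step (2 members) and 253 in the interaction. The genotype contrasts chose the family, so their member counts are no test of the members. With no filter on low counts edgeR called 269, 39, 9 and 68 genes in the CMP, LSK, enhancer-null step and interaction comparisons. One fit of all 12 libraries called 232, 26 and 37 in CMP, LSK and the enhancer-null step, where it also called 1 member, Hmgb2 (adjusted p = 0.0457). Sex as a covariate left 31 genes in CMP and 3 in LSK. Leaving out 1 library at a time gave 7 to 91 genes in CMP, 1 to 21 in LSK, 56 to 882 in the wild-type step (0 to 3 members) and 12 to 107 in the interaction. The libraries whose loss moved a count by over 1.5 times were all 3 wild-type in CMP, all 6 in LSK and in the wild-type step, and 9 of 12 in the interaction. The cause was not tested.

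With the replicate number as a block, the wild-type step had 137 genes and 0 members (adjusted p = 0.0778, 0.102 and 0.0707 for Hmgb1, Hmgb2 and Hmgb3), the interaction 7 genes, and the enhancer-null step none, as without it. The labels tie no number to an animal, and deviations of same-numbered libraries correlated at −0.03 to 0.09 over 9184 genes. The sex read from Xist and Y-linked counts matched between CMP and LSK at every number. A pairing by animal is thus neither shown nor excluded, and the main fits leave it out.

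With DESeq2's size factors Hmgb2 missed the threshold in the wild-type step (adjusted p = 0.0523). Without the filter 4 members passed there, and with DESeq2 Hmga1 and Hmgn3 passed beside the HMGB genes. Some small differences changed sign. With 1 library left out, Hmgn2 ran from −0.07 to 0.13 and Hmga2 from −0.87 to 0.24 in the wild-type step, Hmgn2 from −0.14 to 0.10 in the enhancer-null step, Hmgb3 by genotype in CMP from −0.02 to 0.40 and Hmga2 by genotype in LSK from −0.46 to 0.70. In the interaction Hmgn2 ran from −0.17 to 0.08, Hmgn3 from −0.46 to 0.92, Hmgb2 from −0.04 to 0.18, Hmgb3 from −0.41 to 0.12 and Hmgn5 from −0.03 to 0.36. Hmgn2 in the interaction was also −0.01 without the filter and with the block, and Hmga2 by genotype in LSK was −0.28 with sex as a covariate. Ranking by Spearman's rho kept 2 of the 6 genes nearest to Hmgb2. Group levels kept within 1 SD under other scalings.

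Depth limits Hmga1 and Hmga2, and 3 libraries per group limit all tests.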

Other observations

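The row Hmga2-ps1 had 0 to 329 counts per library, with 329 in enhancer-null CMP replicate 1, where Hmga2 itself had 3. Hmgb4 had 0 counts in all 12 libraries. These rows were not members and were not tested.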
